A study of Mus musculus with 22 samples.

Results

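Chemokines are small secreted proteins that guide leukocytes through tissue, and their receptors are the membrane proteins by which the cells sense them. The genes of both were picked by symbol, as every row of the liver and lung tables named Ccl, Cxcl, Cx3cl, Ccr, Cxcr, Cx3cr or Ackr followed by a digit. This gave 13 of the 12259 genes in the liver table and 41 of the 15971 in the lung table. They are 42 distinct genes, 12 of them in both tables, and 61 genes of the GENCODE M21 annotation carry such a symbol. All samples came from male C57BL/6J mice on normal chow, aged 14 weeks. The air groups breathed air filtered through carbon and HEPA filters, and the benzene groups breathed 50 ppm of benzene for 6 hours on 5 days of each week over 6 weeks. Benzene is a solvent that liver and lung enzymes oxidise to reactive products. Whole liver (5 air and 5 benzene libraries) and whole lung (6 and 6) were sequenced as poly-A RNA.

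Chemokine ligands are named by the spacing of their first cysteines: adjacent in the CC family, with 1 residue between them in CXC, and with 3 between them in CX3C. Signalling receptors couple to G proteins and make the cell move towards the source. Atypical receptors, the Ackr genes, bind chemokines without driving movement and take them out of the tissue. In lung, resident macrophages, dendritic cells, epithelium and stroma make chemokines that hold or draw monocytes, neutrophils and lymphocytes. In liver, stromal and sinusoidal cells, Kupffer cells and hepatocytes do so.

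The coding sequence around those cysteines is shown for ligands that carry the results below, and for Cx3cl1 as the partner of a receptor among them. It was read from GENCODE M21 transcripts, 5′ to 3′ on the coding strand, and capitals mark the first cysteine codons, which define the family.
Ccl9: tcttcagatTGCTGCctgtcctat
Ccl12: ccagtcacgTGCTGTtataatgtt
Ccl17: ggccgagagTGCTGCctggattac
Ccl22: gacagtatcTGCTGCcaggactac
Cxcl9: aatgcacgaTGCtccTGCatcagcacc
Cxcl13: aacttaaaaTGTaggTGTtctggagtg
Cx3cl1: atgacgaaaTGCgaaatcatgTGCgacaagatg
In the CC ligands 0 bases separate the cysteine codons, in the CXC ligands 3 bases and in Cx3cl1 9 bases.

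Values are normalised CPM, the authors' read counts divided by 1 factor per library, and are given as mean ± SD. Changes are benzene over air on log2(value + 1) ± SE, on which the change of a gene near 0 is understated. A member is said to have risen or fallen where its limma p, adjusted by Benjamini-Hochberg over all genes of the table, was under 0.05. Whether the numbered samples of a group are different mice is not in the labels, and the spread behind each p may therefore be partly technical. In bulk tissue, fewer cells of a type and less RNA per cell cannot be told apart.

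The liver libraries held 9459912 to 12710725 reads and the lung libraries 8300876 to 11922169, as recovered from the values. The albumin gene Alb, which hepatocytes express, was at 53298 or more in every liver library and at 4.26 or less in lung, and the surfactant gene Sftpc was at 18812 or more in every lung library. The library of lung air replicate 5 stood apart. Its normalised values summed to 1325414, against 937491 to 1010487 in the other lung libraries, so they lie high for its read total. It had no read for 894 genes, against 13 to 61 in the other lung libraries, and it was the outlying air library for 9 of the 41 lung members. The lung calls are therefore given with and without it, as are the changes of several other lung members, and the plot of lung changes shows both.

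In lung, 9 of the 37 members tested fell with benzene and 0 rose. Of all 15706 genes tested, 5.67% passed the same threshold, 2.29% lower and 3.38% higher. The members that fell were the receptor genes Ccr2, Cx3cr1 and Cxcr2, the CC ligand genes Ccl22, Ccl17, Ccl12 and Ccl9, and the CXC ligand genes Cxcl13 and Cxcl9. The median change of the 37 was -0.28, beside 0.01 over all genes, and 28 of the 37 changes were below 0, where 48.2% of all genes were. The other 4 members in the table, Ackr1, Ccl19, Ccl20 and Ccl28, did not reach a value of 1 in 6 libraries and were not tested. Without air replicate 5, 13 members fell and 0 rose, where 14.7% of all genes passed, 7.08% as lower and 7.66% as higher. The 9 genes were among these 13, joined by Cxcl12, Cxcl17, Ccr1 and Cxcl5.

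**Figure D1:**
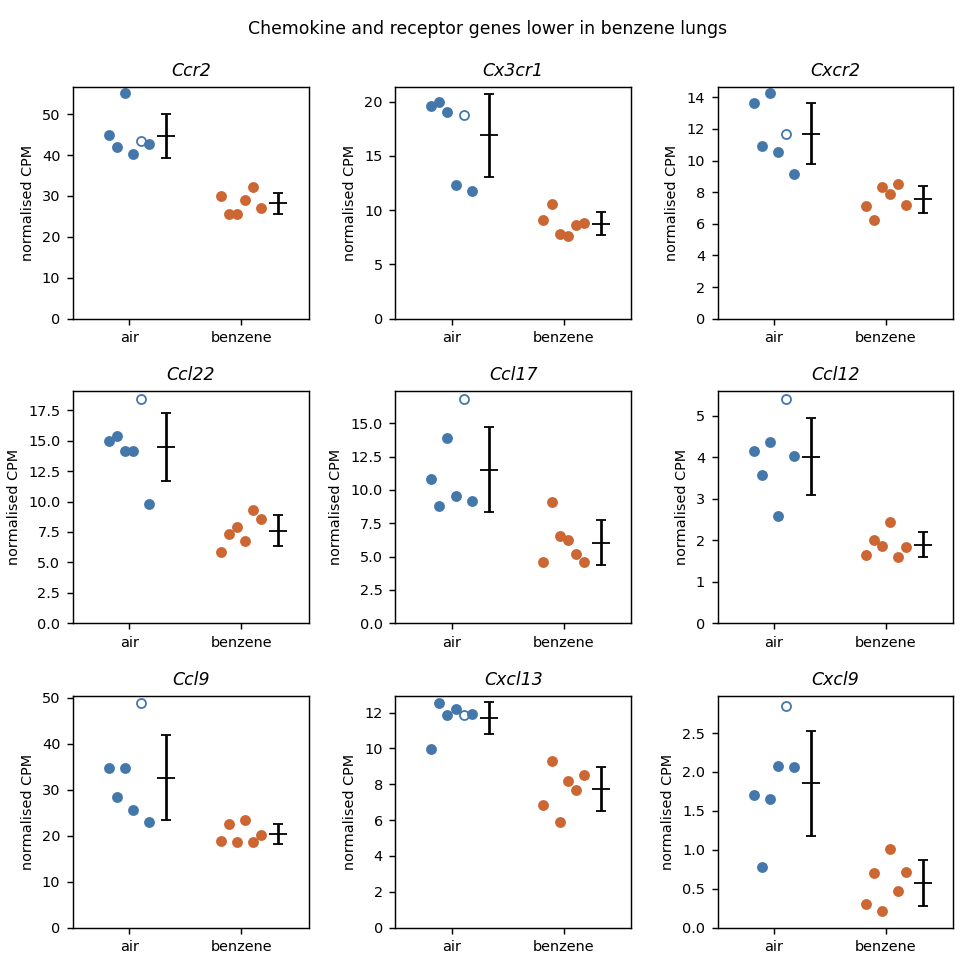
Normalised CPM (y axis, from 0) of the 9 members that fell, in each lung library, by group; points are libraries, the open point is air replicate 5, and the bar is mean ± SD (n = 6). For 6 genes every benzene library lies below every air library, and for Ccl17, Ccl9 and Cxcl9 5 of 6 do.

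Among the ligands, 6 of 24 fell. Ccl17 and Ccl22 are both ligands of the receptor Ccr4, which draws T cells, and dendritic cells are a known source of both. Ccl22 ran from 9.78 through a median of 14.6 to 18.4 in air lungs, and from 5.82 through 7.59 to 9.29 in benzene lungs. The groups did not overlap, and the mean fell from 14.5 ± 2.80 to 7.61 ± 1.25 (change -0.84 ± 0.149, limma adjusted p = 0.00295). Ccl17 ran from 8.83 through 10.2 to 16.8 in air and from 4.59 through 5.72 to 9.08 in benzene lungs, so that 1 benzene library overlapped the air range. The Ccl17 mean fell from 11.5 ± 3.18 to 6.05 ± 1.70 (change -0.82 ± 0.187, limma adjusted p = 0.0171). Both ratios of means were close, at 0.525 for Ccl22 and 0.526 for Ccl17. For both genes air replicate 5 was the highest library, and without it the changes were -0.77 (limma adjusted p = 0.000562) and -0.72 (0.00452). The Ccl17 call was lost without benzene replicate 1 (limma adjusted p = 0.0505).

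These genes lie beside each other on chromosome 8. In GRCm38 Ccl22 spans chr8:94745590-94751699, Cx3cl1 chr8:94772009-94782427 and Ccl17 chr8:94810453-94812036, all on the plus strand. Cx3cl1, which lies between them, encodes fractalkine, a membrane-bound chemokine of endothelium and epithelium. It ran from 42.1 through 51.6 to 59.6 in air and from 55.6 through 63.0 to 71.8 in benzene lungs, with means of 52.2 ± 6.65 and 63.7 ± 6.62. Its groups overlapped, and its change of 0.28 ± 0.101 did not pass (limma adjusted p = 0.116, 0.0775 without air replicate 5). Among 21 alternatives it passed as higher with array weights (limma adjusted p = 0.0206). Without air replicate 5 it passed in 3 of 20. These were total scaling (limma adjusted p = 0.0465), array weights (0.0222) and leaving out benzene replicate 2 (0.0428). The gene of the Ccr4 receptor, which the symbol rule would have picked, had no values in either tissue.

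The stretch of 250 bases before the start of Ccl17 and of Ccl9 is shown because these are the promoters, among those of the 9 members that fell, in which a searched motif was found. RefSeq gave promoters for 30 of the 42 members (GRCm38.p6). The motifs, searched on both strands, were those of NF-kappaB (GGGA or GGGG, any base, then TTTCC), of STAT factors (TTC, any 3 bases, then GAA), of STAT6 (TTC, any 4 bases, then GAA) and of the interferon response (GAAA, any 2 bases, then GAAA). They occur in 0.718%, 7.02%, 5.85% and 2.98% of 32851 promoters of this length. Capitals mark the matches, a STAT6 and a STAT match in Ccl17 (chr8:94810203-94810452, plus strand) and an NF-kappaB match on the reverse strand in Ccl9 (chr11:83578637-83578886, minus strand).
Ccl17: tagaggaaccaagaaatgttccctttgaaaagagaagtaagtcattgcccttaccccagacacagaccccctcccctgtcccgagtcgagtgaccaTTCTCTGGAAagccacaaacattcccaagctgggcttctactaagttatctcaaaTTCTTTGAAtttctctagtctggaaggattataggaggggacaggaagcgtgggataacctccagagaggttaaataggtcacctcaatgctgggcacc
Ccl9: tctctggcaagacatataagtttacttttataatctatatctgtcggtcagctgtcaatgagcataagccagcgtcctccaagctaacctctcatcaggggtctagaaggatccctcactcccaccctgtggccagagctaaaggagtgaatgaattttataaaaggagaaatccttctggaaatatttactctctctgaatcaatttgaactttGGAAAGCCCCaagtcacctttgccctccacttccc
A match describes these letters and is not a shown binding site. In the windows of Ccl12, Ccl22, Cxcl9, Cxcl13, Ccr2, Cx3cr1 and Cxcr2 these letters were not found. Matches also lay in the windows of Ccl19, Ccl20, Cxcl1, Cxcl10 and Cxcl14, which were not among the 9 that fell. Of these, Cxcl10 and Cxcl14 were tested in lung and did not pass, and the others were not tested there. A match to some searched motif was thus not found only in members that fell.

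Ccl12 and Ccl9 are CC ligands of mouse. Ccl12 is a ligand of Ccr2 and sits on chromosome 11 with Ccl2, Ccl7, Ccl11 and Ccl8, 5 members within 81.2 kb. It ran from 2.57 through 4.08 to 5.40 in air and from 1.59 through 1.85 to 2.43 in benzene lungs, without overlap, on 31 to 45 reads and 16 to 24 reads. The Ccl12 mean fell from 4.01 ± 0.931 to 1.89 ± 0.304 (change -0.78 ± 0.155, limma adjusted p = 0.00755, and -0.70 with 0.00501 without air replicate 5). Ccl12 was the 1 member of this cluster that passed, with all libraries and without air replicate 5 alike. Ccl2, the main monocyte attractant of the cluster, had 1.78 ± 0.613 in air and 0.801 ± 0.360 in benzene lungs (change -0.62 ± 0.194, limma adjusted p = 0.0786), on 5 to 26 reads. It passed with DESeq2 (adjusted p = 0.0327), with array weights (0.0304) and without air replicate 2 (0.0459), in a range of 0.0304 to 0.216 over its alternatives. Ccl7, another Ccr2 ligand, had 2.08 ± 1.26 and 1.08 ± 0.256 (change -0.50 ± 0.213, limma adjusted p = 0.188), with air replicate 5 at 4.65. Without that library the air mean of Ccl7 was 1.57 ± 0.154 and the change -0.31 ± 0.170 (limma adjusted p = 0.234). Ccl8 had 5.51 ± 1.39 and 4.88 ± 1.18, and Ccl11, an attractant of eosinophils, had 5.91 ± 1.27 and 6.94 ± 0.913.

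Ccl9, a ligand of Ccr1, sits further along chromosome 11 with Ccl5, Ccl6 and Ccl4. It ran from 23.1 through 31.6 to 48.9 in air and from 18.6 through 19.5 to 23.5 in benzene lungs, so that 1 benzene library overlapped. The Ccl9 mean fell from 32.6 ± 9.28 to 20.4 ± 2.15 (change -0.61 ± 0.155, limma adjusted p = 0.0325). Without air replicate 5, the highest library, the change was -0.49 ± 0.112 (limma adjusted p = 0.00516). Among the fits that left out 1 of the 12 libraries, Ccl9 no longer passed without benzene replicate 1, 3, 5 or 6 or either of air replicates 1 and 3 (limma adjusted p from 0.0679 to 0.0818). Its neighbours did not pass. Ccl6, a macrophage chemokine of mouse and the gene next to it, had 128 ± 5.84 in air and 124 ± 8.13 in benzene lungs (change -0.05 ± 0.0681, 95% interval -0.19 to 0.10), and Ccl5, a product of T and natural killer cells, had 20.3 ± 3.82 and 19.4 ± 2.32 (95% interval of the change -0.33 to 0.24).

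Cxcl13 is the B cell attractant that binds Cxcr5. It ran from 9.98 through 11.9 to 12.5 in air and from 5.91 through 7.95 to 9.31 in benzene lungs, without overlap. Its mean fell from 11.7 ± 0.889 to 7.74 ± 1.22 (change -0.55 ± 0.119, limma adjusted p = 0.0126, 0.00489 without air replicate 5, and 0.0616 where values were scaled to library totals). Its receptor gene Cxcr5 did not pass, at 10.8 ± 0.897 in air lungs and 9.81 ± 0.948 in benzene lungs (change -0.13 ± 0.104, limma adjusted p = 0.457). Exons of Cxcr5 overlap those of Bcl9l on the opposite strand, so its reads may be shared.

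Cxcl9, which interferon gamma induces and which draws T cells through Cxcr3, was near the limit of detection in lung. It ran from 0.782 through 1.88 to 2.85 in air, on 7 to 25 reads, and from 0.219 through 0.588 to 1.01 in benzene lungs, on 2 to 10 reads. The ranges overlapped in 1 benzene library. Its mean fell from 1.85 ± 0.677 to 0.572 ± 0.296 (change -0.84 ± 0.202, limma adjusted p = 0.0238, and -0.75 with 0.0174 without air replicate 5), and the call was lost without benzene replicate 1 (0.0665), 3 (0.0645) or 5 (0.0595). The neighbouring gene Cxcl10, which is also induced by interferon and binds the same receptor, had 1.92 ± 0.715 and 1.30 ± 0.239 (change -0.30 ± 0.191, limma adjusted p = 0.357). The Cxcl10 change was -0.44 ± 0.172 (limma adjusted p = 0.0914) without air replicate 5. Exons of Cxcl10 overlap those of Art3 on the opposite strand. The receptor gene Cxcr3 had 2.58 ± 1.09 and 2.67 ± 0.682 (change 0.07, limma adjusted p = 0.864, and -0.08 with 0.823 without air replicate 5).

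Among the 10 signalling receptors tested, 3 fell with all libraries. Ccr2 takes monocytes out of the bone marrow and into tissue and binds Ccl2, Ccl7 and, in mouse, Ccl12. It ran from 40.4 through 43.0 to 55.2 in air and from 25.6 through 28.1 to 32.1 in benzene lungs, with a gap between the groups. Its mean fell from 44.7 ± 5.36 to 28.3 ± 2.58 (change -0.64 ± 0.0945, limma adjusted p = 0.000566, and 4.51e-05 without air replicate 5). Ccr2 had the lowest adjusted p of the members.

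Cx3cr1, the receptor of fractalkine, marks patrolling monocytes and several tissue macrophages. It ran from 11.7 through 18.9 to 19.99996 in air and from 7.59 through 8.71 to 10.6 in benzene lungs. The groups did not overlap, although 2 air libraries lay well below the other 4. The Cx3cr1 mean fell from 16.9 ± 3.82 to 8.75 ± 1.08 (change -0.85 ± 0.152, limma adjusted p = 0.00316, and -0.82 with 0.000555 without air replicate 5), while its ligand gene Cx3cl1 did not pass. Some exons of Cx3cr1 overlap the antisense gene Gm33858, and whether the counting used strand is not given in the sources used here, so reads of the pair cannot be told apart.

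Cxcr2 is the neutrophil receptor for Cxcl1, Cxcl5 and related ligands. It ran from 9.16 through 11.3 to 14.3 in air and from 6.25 through 7.53 to 8.54 in benzene lungs, without overlap. Its mean fell from 11.7 ± 1.94 to 7.55 ± 0.860 (change -0.56 ± 0.127, limma adjusted p = 0.0163, 0.00584 without air replicate 5, and 0.071 where values were scaled to library totals). Among the receptors that did not pass were Ccr1, Ccr7, Cxcr3, Cxcr4, Cxcr5 and Cxcr6. Cxcr4, the receptor of Cxcl12 and the highest of them, had 65.6 ± 5.68 in air and 71.5 ± 5.27 in benzene lungs (95% interval of the change -0.05 to 0.30). Ccr7, which guides dendritic cells and T cells to lymph nodes, had 14.1 ± 2.59 and 13.8 ± 1.26 (95% interval of the change -0.28 to 0.24). Cxcr6, the receptor of Cxcl16 on T cells, had 5.14 ± 0.912 and 3.68 ± 0.674, with no overlap of the libraries, and a limma adjusted p of 0.141 (0.0994 without air replicate 5).

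Over all 37 members, the benzene libraries lay below every air library for 8, and above every air library for 0. Of all genes tested, 2.46% lay below in this way and 3.67% above. Without air replicate 5, 10 of the 37 members lay below, where 4.13% of all genes did. The 3 atypical receptor genes did not pass in either comparison. Ackr2, which removes inflammatory CC chemokines, had 32.6 ± 9.70 in air and 38.7 ± 4.76 in benzene lungs. Ackr3, which removes Cxcl12, had 43.2 ± 8.80 and 43.4 ± 3.78. Ackr4, which removes Ccl19, Ccl21 and Ccl25, had 16.4 ± 5.57 and 19.6 ± 1.47. Exons of Ackr4 overlap those of Acad11 on the opposite strand, so its reads may be shared. Without air replicate 5, which was low for Ackr2 and Ackr4, their changes went from 0.31 and 0.33 to 0.08 and 0.08.

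**Figure D2:**
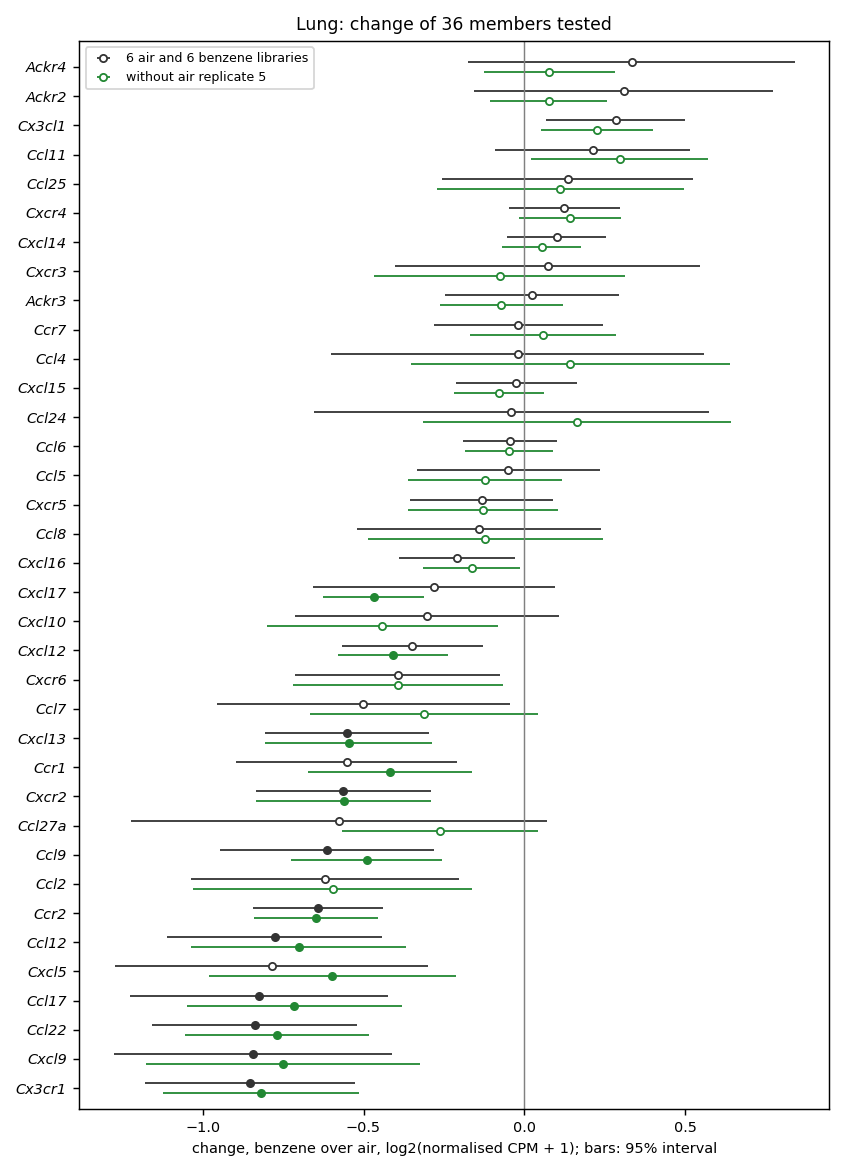
Change of 36 of the 37 lung members tested (x axis, benzene over air on log2(normalised CPM + 1), with 95% interval), with all 12 libraries and without air replicate 5; filled points have an adjusted p under 0.05. The filled points all lie left of 0, 9 with all libraries and 13 without air replicate 5.

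The 4 members that passed once air replicate 5 was left out include some of the most abundant ones. Cxcl12, a stromal chemokine that retains leukocytes through Cxcr4, ran from 140 through 148 to 172 in the other 5 air lungs and from 104 through 109 to 137 in benzene lungs, without overlap. Air replicate 5 lay at 118, among the benzene libraries. Its change was -0.41 ± 0.0822 (limma adjusted p = 0.0018), and -0.35 ± 0.102 (0.0615) with that library. Cxcl17, a chemokine of airway mucosa, ran from 62.8 through 65.9 to 76.1 in the 5 air lungs and from 43.2 through 48.6 to 52.8 in benzene lungs. The groups did not overlap, and air replicate 5 was below both at 30.3. Its change was -0.47 ± 0.0751 (limma adjusted p = 0.000184), and -0.28 ± 0.176 (0.355) with that library.

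For the other two, air replicate 5 was high. Ccr1, a receptor of Ccl5, Ccl7 and Ccl9 on myeloid cells, ran from 7.82 through 9.88 to 11.6 in the 5 air lungs and from 6.24 through 7.13 to 8.07 in benzene lungs, with 1 benzene library in the air range and air replicate 5 at 17.8. Its change was -0.42 ± 0.122 (limma adjusted p = 0.0259), and -0.55 ± 0.160 (0.0593) with that library. Cxcl5, a neutrophil attractant made by alveolar epithelium, ran from 1.41 through 1.65 to 2.35 in the 5 air lungs and from 0.307 through 0.893 to 1.13 in benzene lungs, without overlap, with air replicate 5 at 4.95. Its change was -0.60 ± 0.184 (limma adjusted p = 0.0342), and -0.79 ± 0.226 (0.0573) with that library. Cxcl5 rested on 3 to 12 reads in benzene lungs. Among these 5 air and 6 benzene lungs, Ccr1 no longer passed without benzene replicate 3 or 5 or either of air replicates 1 and 3 (0.0510 to 0.0784), and Cxcl5 did not when benzene replicate 1, 2, 3 or 6 or air replicate 2, 3 or 6 was left out (0.0518 to 0.0952).

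The most abundant members of lung did not pass with all libraries. Per kb of exon, the order over all 12 libraries was led by Cxcl15 (335 normalised CPM per kb), Cxcl14 (90.2), Cxcl17 (71.9), Ccl6 (69.995) and Cxcr4 (37.9). Cxcl15, or lungkine, is a product of mouse airway epithelium. It ran from 594 through 733 to 796 in air and from 660 through 720 to 736 in benzene lungs, with full overlap (95% interval of the change -0.21 to 0.16). Cxcl14, a chemokine made by epithelium and stroma at rest, ran from 136 through 163 to 169 in air and from 159 through 171 to 180 in benzene lungs, again with overlap (95% interval -0.05 to 0.25). Ccl6 ran from 122 through 127 to 136 in air and from 115 through 123 to 136 in benzene lungs. Cxcl16, a membrane-bound ligand of Cxcr6, ran from 71.7 through 80.7 to 95.4 in air and from 64.9 through 67.9 to 81.0 in benzene lungs (change -0.21 ± 0.084, limma adjusted p = 0.164, and -0.16 with 0.140 without air replicate 5). Its exons overlap those of Zmynd15 on the opposite strand. Ccl27a, a chemokine of skin, had 11.2 ± 9.27 in air and 5.98 ± 0.858 in benzene lungs, with air replicate 5 at 29.8 and the other air lungs at 6.09 to 10.3. Its change was -0.58 ± 0.302 (limma adjusted p = 0.276), and -0.26 ± 0.146 (0.245) without that library. Its reads may be shared with near-identical copies in the mouse genome and with Il11ra1, whose exons it overlaps. The other members that did not pass were Ccl4, Ccl24 and Ccl25, with changes from -0.04 to 0.13, or from 0.11 to 0.16 without air replicate 5. Exons of Ccl25 overlap those of Elavl1 on the opposite strand.

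Genes that work with the chemokines were counted from lists chosen with earlier results of these data known. Of 17 other chemoattractant ligands and receptors tested in lung, 1 fell and 1 rose. Cd74, the invariant chain and a receptor of the chemokine-like Mif, fell from 1594 ± 269 to 1069 ± 77.9, and the formyl peptide receptor gene Fpr1 rose from 4.49 ± 0.574 to 6.89 ± 0.987. Of 40 signal transduction genes 1 fell, Rac2, the leukocyte GTPase of movement, from 56.4 ± 6.88 to 42.7 ± 3.59. Of 36 cytokine and transcription factor genes upstream of chemokines 1 fell, Nfkb2, from 45.2 ± 3.94 to 34.6 ± 1.76, and 1 rose, the bacterial lipopeptide receptor gene Tlr2, from 13.5 ± 1.38 to 18.7 ± 1.56. Of 19 adhesion genes of leukocyte entry 2 fell, the integrin gene Itgb7 from 38.7 ± 3.45 to 28.5 ± 3.97 and Selplg, the selectin ligand of leukocytes, from 59.5 ± 10.7 to 43.4 ± 3.48. Of 21 genes of proteases and glycans that trim or hold chemokines, the macrophage elastase gene Mmp12 fell and the heparan sulphate gene Hs2st1 rose. Of all genes tested, 2.29% fell and 3.38% rose. The median change of these lists lay between -0.11 and 0.01, beside 0.01 over all genes. Without air replicate 5 the calls were 1 higher and 2 lower, 1 and 5, 3 and 4, 0 and 3, and 2 and 2, in the same order of lists. In that comparison 7.66% of all genes rose and 7.08% fell, so these counts are not read as a result about the lists.

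Markers of the leukocytes that carry these receptors moved in part with the same groups, and their part in the results was not tested. Over all genes, 2.29% fell and 3.38% rose, or 7.08% and 7.66% without air replicate 5. Of 10 neutrophil markers tested, out of a list of 15, 2 fell (Ltf and Retnlg) and 0 rose, or 5 and 0 without air replicate 5. The markers summed to between 488 and 689 in air lungs and between 340 and 433 in benzene lungs, without overlap. A sum follows the most abundant markers of its list and does not speak for each of them. Of 12 markers of conventional dendritic cells 1 fell (Zbtb46), or 6 without air replicate 5, with sums of 285 to 423 in air and 319 to 340 in benzene lungs. Of 11 markers of mature dendritic cells 2 fell (Marcksl1 and Fscn1), with sums of 476 to 630 and 489 to 525. Of 12 markers of monocytes and the macrophages they give rise to, 2 rose (Chil3 and Nr4a1) and 0 fell. The sums of this list overlapped, at 1335 to 1839 in air and 1628 to 1851 in benzene lungs. Chil3 is also on the alveolar macrophage list, so the sum is not a measure of monocytes alone. Without air replicate 5 the monocyte gene Ly6c2 fell, from 16.7 ± 3.24 to 12.4 ± 1.87.

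Of 13 alveolar macrophage markers 6 rose and 1 fell, with sums of 760 to 1108 in air and 860 to 1043 in benzene lungs. Of 13 T cell markers tested 0 passed by limma (1, Cd3e, fell without air replicate 5), with sums of 86.8 to 163 and 65.8 to 95.2, and of 11 B cell markers 1 fell (Cd79a), with sums of 181 to 290 and 166 to 186. None of the markers listed for these cell types was at 0 in every lung library among those in the table. Markers of tissue outside the lung parenchyma differed as well: 15 of the 15 markers tested of stratified squamous epithelium rose, 8 of 13 of skeletal muscle fell and 2 rose, and 6 of 10 of heart muscle fell. Their part in the results was not tested. The sums were 348 to 461 in air and 4396 to 4769 in benzene lungs for squamous epithelium, and 2055 to 2839 and 1192 to 1455 for heart muscle.

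**Figure D3:**
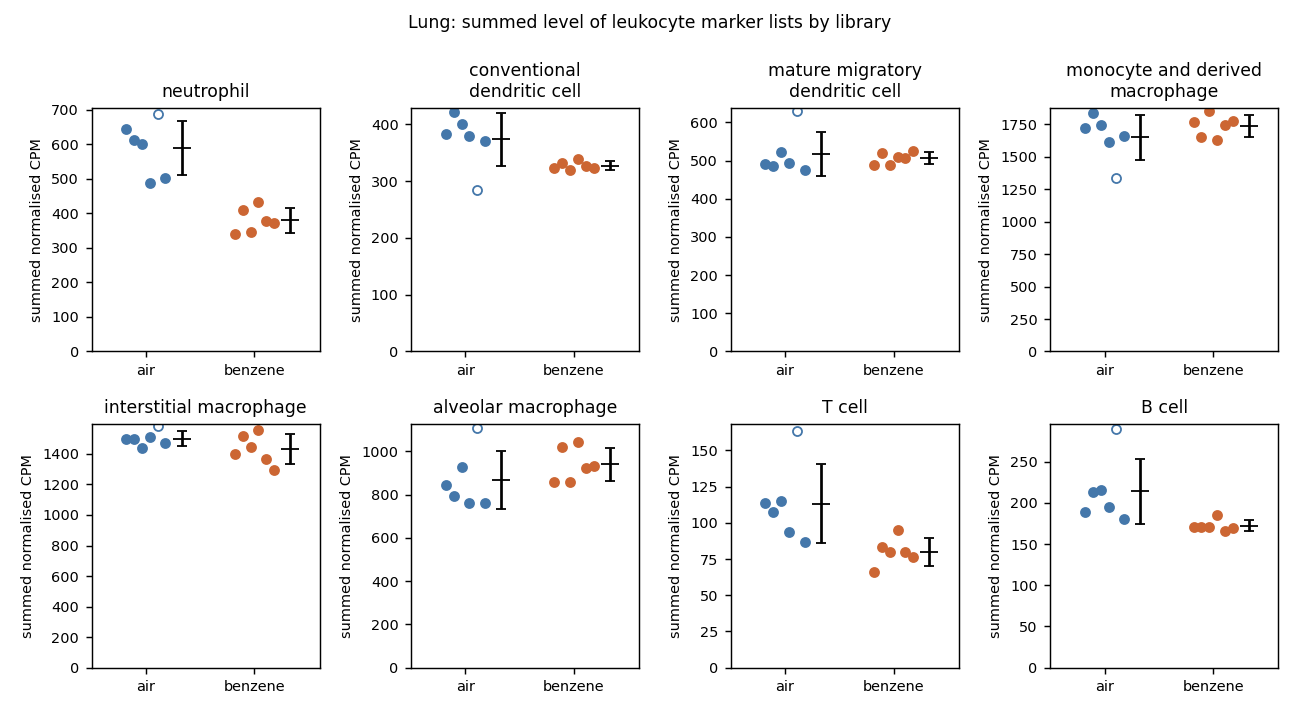
Summed normalised CPM of 8 leukocyte marker lists (y axis, from 0) in each lung library, by group; points are libraries, the open point is air replicate 5, and the bar is mean ± SD (n = 6). The neutrophil sums of the benzene lungs (340 to 433) lie below all air sums. The sums of the monocyte and derived macrophage list, which shares Chil3 with the alveolar macrophage list, overlap.

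In liver, 0 of the 12 members tested passed by limma, where 1.55% of all 11968 genes did. By edgeR the count was 0 and by DESeq2 1. At an unadjusted p under 0.05 there were 4, of which Cxcl9, Cxcl16 and Ccl6 had higher and Cxcl1 lower means with benzene. Of all genes 13.1% reached that level, 6.17% higher and 6.92% lower. The median change of the 12 was 0.23, beside 0.00 over all genes, and 8 of the 12 changes were above 0, as were 50.4% of all. The libraries of the groups overlapped for each of the 12, where 2.18% of all genes lay lower and 2.07% higher without overlap.

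The liver members fell into a high and a low group. Per kb of exon the highest were Cxcl12 (25.0 normalised CPM per kb over all 10 libraries), Ccl9 (23.0) and Ackr4 (17.96), and the others were at 2.63 or less. Cxcl12 was at 230, 207, 196, 188 and 209 in air livers and at 205, 218, 205, 191 and 197 in benzene livers. These values overlapped throughout (95% interval of the change -0.17 to 0.13). Ackr4, the atypical receptor gene, was at 107, 77.5, 92.2, 89.5 and 96.7 in air and at 88.1, 119, 115, 78.1 and 103 in benzene livers, with overlap (95% interval -0.13 to 0.34). Its exons overlap those of Acad11 on the opposite strand, so its reads, and with them its high level, may be shared. Ccl9 was at 71.0, 69.2, 79.0, 75.2 and 72.1 in air and at 68.7, 62.5, 66.8, 73.6 and 62.5 in benzene livers. It was below the air range in 4 of 5 benzene livers, with a change of -0.13 ± 0.0757 (limma adjusted p = 0.487).

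**Figure D4:**
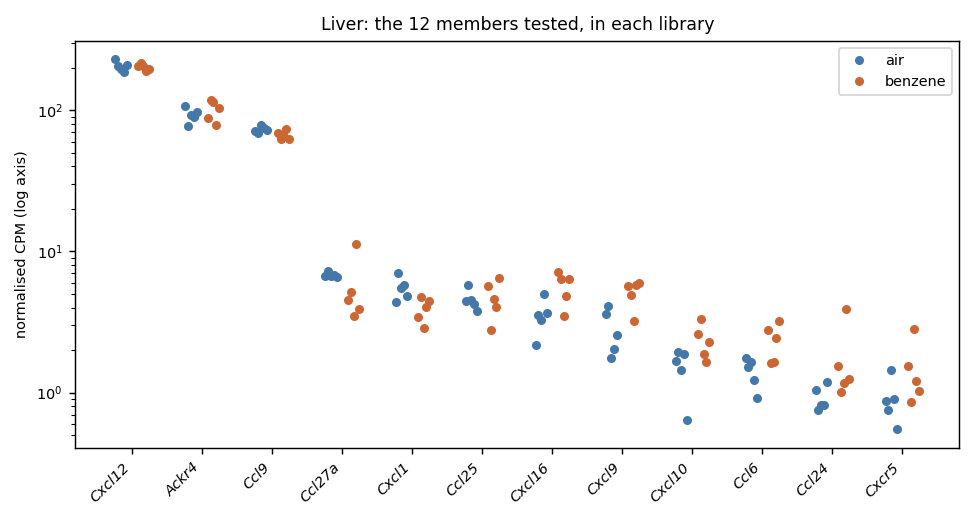
Normalised CPM (y axis, log scale) of the 12 liver members tested in each of the 5 air and 5 benzene libraries. Cxcl12, Ackr4 and Ccl9 lie between 62.5 and 230 in every library and the other members lower, and the groups overlap for every gene.

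Cxcl9 had the lowest p of the liver members. It was at 3.59, 4.10, 1.75, 2.04 and 2.57 in air and at 5.71, 4.89, 3.20, 5.79 and 5.99 in benzene livers. In 4 of 5 benzene livers it was above every air library. The means were 2.81 ± 1.01 and 5.12 ± 1.15, and the change was 0.70 ± 0.203 (limma adjusted p = 0.112). It passed with DESeq2 (adjusted p = 0.0470) and with array weights (0.0286), in a range of 0.0286 to 0.287 over its alternatives. Cxcl16 was at 2.19, 3.56, 3.29, 4.97 and 3.68 in air and at 7.18, 6.36, 3.51, 4.84 and 6.41 in benzene livers, 3 of which were above every air library (change 0.55 ± 0.196, limma adjusted p = 0.215).

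Cxcl1, a neutrophil attractant that hepatocytes make under stress, was at 4.38, 7.02, 5.55, 5.79 and 4.87 in air and at 3.43, 4.73, 2.89, 4.06 and 4.44 in benzene livers. In 3 of 5 benzene livers it was below every air library (change -0.41 ± 0.162, limma adjusted p = 0.272). Ccl27a was at 6.66, 7.23, 6.68, 6.85 and 6.62 in air and at 4.57, 5.20, 3.51, 11.2 and 3.93 in benzene livers. Benzene replicate 4 was above and the other 4 below every air library (change -0.33 ± 0.213, limma adjusted p = 0.558). Ccl6, Cxcl10, Ccl24, Ccl25 and Cxcr5, on means of 0.904 to 4.73, had changes from 0.01 to 0.45 and limma adjusted p from 0.323 to 0.986.

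Kupffer cells, the resident liver macrophages, moved in the same libraries, and their part in the values above was not tested. Of 12 Kupffer cell markers 5 rose and 0 fell, and their sums lay between 376 and 421 in air livers and between 510 and 547 in benzene livers. Cd5l rose from 22.7 ± 2.36 to 47.2 ± 7.32 and Clec4f from 29.4 ± 2.36 to 47.8 ± 6.20. Of the list of 15 neutrophil markers 1 was tested in liver, and of 11 markers of natural killer cells none was in the table. Among genes that work with chemokines, Cd74 rose from 34.0 ± 5.78 to 60.7 ± 7.37 (1 of 6 tested), and the G protein gene Gng2 rose (1 of 28). Of 16 protease and glycan genes, the syndecan gene Sdc3 rose and Sdc1 fell. Of 31 upstream cytokine and factor genes and of 15 adhesion genes, 0 passed by limma. Over all genes tested in liver, 0.819% rose and 0.735% fell.

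The last comparison asked whether the response of a member differed between the tissues, as the change in liver minus the change in lung in 1 fit over the genes of both tables. The tables were normalised separately, and each change was taken within its own table. Of 11 members tested, 1 differed, Cxcl9, where 1.41% of all 11266 genes did and 0.719% with the higher response in liver. Cxcl9 had a change of 0.70 in liver and -0.84 in lung, a difference of 1.54 ± 0.298 (95% interval 0.93 to 2.16, limma adjusted p = 0.00622). The liver change on its own did not pass, as given above. The difference passed in each of the 30 alternatives that tested it (adjusted p from 2.13e-05 to 0.0180).

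The next highest difference was that of Cxcl16, 0.76 ± 0.203 (limma adjusted p = 0.0674), which passed with DESeq2 (0.00422), with array weights (0.0105), without lung air replicate 5 (0.0444), without liver air replicate 4 (0.0289) or without liver benzene replicate 3 (0.0134). Over its alternatives its adjusted p ran from 0.00422 to 0.136. Cxcl10 had a difference of 0.72 ± 0.285, and Ccl9 of 0.48 ± 0.183 with changes of -0.13 in liver and -0.61 in lung, and neither passed (limma adjusted p = 0.257 and 0.243). The differences of 9 of the 11 members were above 0, as were 49.3% of all genes. For Cxcl12 the difference was 0.33 ± 0.130 (limma adjusted p = 0.255), for Ackr4 -0.23 ± 0.291, and for Ccl25 -0.12 ± 0.266.

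**Figure D5:**
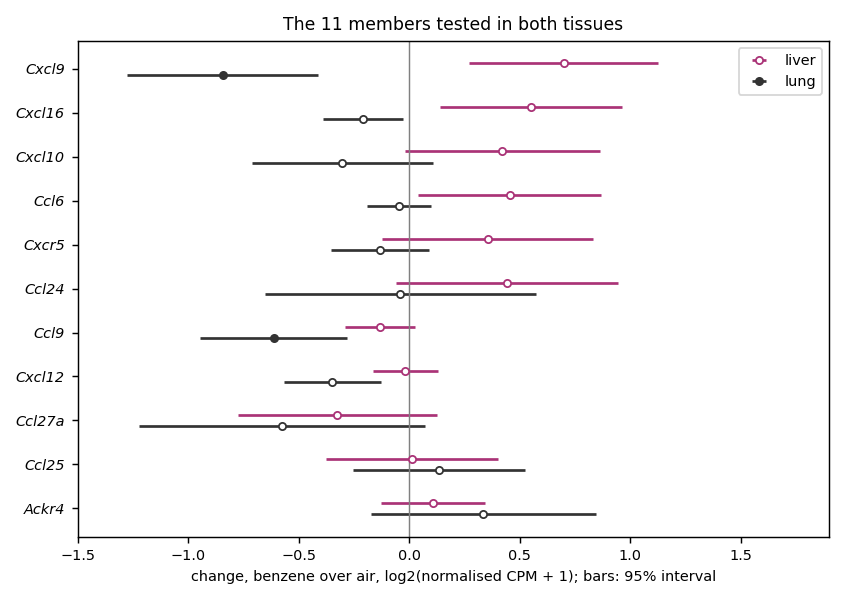
Change with benzene of the 11 members tested in both tissues (x axis, benzene over air on log2(normalised CPM + 1), with 95% interval), in liver and in lung; filled points have an adjusted p under 0.05 within that tissue. Cxcl9 lies furthest apart, at 0.70 in liver and -0.84 in lung.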

How the data were processed

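Poly-A RNA of 22 libraries was sequenced as read pairs of 150 bases. The submitters' processing notes name fastp 0.20.0, STAR, edgeR 3.10 and GRCm38. No source used here names the counter or the annotation. The deposited tables hold 1 normalised signal per gene and library, headed CPM by the authors, and every value was a whole count over 1 factor per library (100% of values within 0.01). Liver columns are lettered C and T, and T was taken as the exposed group. The deposited log2 or other log fold change, of unstated base, and the deposited benzene means of liver, which equal the library mean in 1 of 12259 genes, were not used. The p-value deposited by the authors is unadjusted. After adjustment here, 9 of the 41 lung members and 0 of the 13 liver members passed in the authors' deposited table.

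The plan named edgeR for raw counts and limma for normalised values, so limma 3.58.1 (R 4.3.3) was used with trend on log2(value + 1). Genes needed a value of 1 in 5 liver or 6 lung libraries, or in 5 without lung air replicate 5. P-values were adjusted by Benjamini-Hochberg over all genes. Tests were tried on simulated data. Alternatives were edgeR 4.0.16 and DESeq2 1.42.0 on the recovered counts, other scalings, filters, a pseudocount of 0.1, array weights, a replicate block and leaving out each library. Library sizes of 8300876 to 12710725 reads limit precision for members of few reads, and intervals cover the spread of libraries. Summaries used pandas 2.3.3 in Python 3.11.15. Members and gene lists were chosen with earlier results of these data known. Named with values were members past the threshold in any comparison, the 5 highest of each tissue and their ligands or receptors, and of other lists up to 4 genes past the threshold by lowest p. Values of 1 member are not reported here, although it stays in the counts.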

Additional observations from a re-analysis of the deposited data

Results flagged for a closer look

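Of 108 groups of member values, 13 had a library far from the others, and chance gives about 1 in 20 such groups. Lung air replicate 5 accounted for 9 of them. It was low for Ackr4 (5.70, other air lungs 16.3 to 21.1), Ackr2 (13.2, others 33.6 to 38.3), Cxcl14 (136, others 161 to 169) and Cxcl17 (30.3, others 62.8 to 76.1). It was high for Ccr1 (17.8, others 7.82 to 11.6), Ccl27a (29.8, others 6.09 to 10.3), Ccl7 (4.65, others 1.34 to 1.70), Cxcl5 (4.95, others 1.41 to 2.35) and Ccl20 (4.20, others 0 to 1.24).

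Other single libraries stood out for a few genes. Cxcl13 was 9.98 in lung air replicate 1, against 11.8 to 12.5 in the other air lungs. Ccr2 was 55.2 in lung air replicate 3, against 40.4 to 44.8. Liver benzene replicate 4 was high for Ccl24 (3.89, others 1.01 to 1.55) and for Ccl27a (11.2, others 3.51 to 5.20).

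The response of Cxcl9 to benzene differed between the tissues by 1.54 on the log2 scale (limma, liver minus lung).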

How the results depend on the processing

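A change of sign was counted as a reversal only where the member was called in 1 of the 2 fits compared, and 0 were found. The changes compared were 224 in liver, 771 in lung, 734 in lung without air replicate 5 and 336 for the difference between tissues. Many of these involved no call and could not count as reversals, as in liver, where 0 members were called in the main fit. Changes of members not called did change sign, such as Ackr3 in lung, from -0.10 to 0.14 over its alternatives. Ccr2, Cx3cr1 and Ccl22 passed in each of the 21 alternatives run in lung. The count of 9 in lung was 16 with array weights (15 lower, 1 higher, the last being Cx3cl1), 11 with edgeR, 13 with DESeq2 and 8 with total scaling, which moved the median of all genes to 0.12. Leaving out 1 library gave 6 to 13, lowest without benzene replicate 1 and highest without air replicate 5. The count of 13 without air replicate 5 was 11 to 14 with 1 more library left out. In liver the count of 0 was 1 with DESeq2 and 1 with array weights, and 0 in each fit that left out 1 library. For the difference the count of 1 was 3 with DESeq2, 5 with array weights, 0 where a gene needed the minimum in every library, a filter that left Cxcl9 out, and 1 to 2 with 1 library left out. With the replicate number as a block the count was 3 in lung, 9 in lung without air replicate 5, 0 in liver and 1 for the difference. The values gave no sign that the numbers pair air with benzene libraries within a tissue. Whether liver and lung samples of the same number are from the same mouse was not tested. After the group mean of each gene was taken off, same-numbered air and benzene libraries correlated between -0.36 and 0.19. Of the air libraries, only liver replicate 4 correlated best with the benzene library of its own number. Read counts limit Cxcl9, Cxcl5 and Ccl2 in lung.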
